A study of Mus musculus with 12 samples.

Results

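The mRNAs of 6 genes whose proteins act on transcription in the nucleus were examined for 5-methylcytosine (m5C), the addition of a methyl group to the fifth carbon of cytosine in RNA. The genes were Hdgf, Smyd2, Nelfb, Atn1, Foxp4 and Crtc1. They were taken from the 2080 genes named for the 6462 called sites of the series (0.101% of the 6384216 listed cytosines), and 4963 cytosines listed in any library named one of them. A cytosine was called as a site when it had a coverage of at least 20 reads, at least 6 unconverted reads and a methylation level of at least 10% in both replicates of at least 1 condition. By this rule the 6 genes held 9 called sites. The methylation level is the share of reads that still show C after bisulfite treatment, which turns unmethylated cytosine into a base read as T. The genes and the sites were therefore chosen on these levels, so the levels are given as a description, and tests were kept to quantities that the choice did not use. Just inside the rule lay a Foxp4 site whose lower replicate reached 10.3% in pLF. Of the member cytosines that met both read minimums but not the level, the nearest, also in Foxp4, had 5.82% and 6.73% in HF. With at least 3 unconverted reads in place of 6, the genes held 10 called sites.

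The cells were adult neural stem cells (NSCs) from the subventricular zone of wild-type male C57BL/6 mice aged 6 to 8 weeks, grown as a monolayer for 4 days in medium with EGF and bFGF. Low (LF), medium (MF) and high (HF) folic acid medium held 1.5, 10 and 80 μM, and the 3 media were otherwise the same. Poly(A) RNA was taken from whole cells (total: LF, MF, HF) and from pooled sucrose gradient fractions with more than 3 ribosomes (polysome: pLF, pMF, pHF), which gave 12 RNA bisulfite sequencing (RNA BS-seq) libraries, 2 per condition. The study calls the replicates biological, and the labels do not say which cultures or animals they came from, so p-values from limma and edgeR measure the spread between these samples.

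Control of transcription passes through several of the proteins these mRNAs encode. Nelfb is a subunit of the negative elongation factor, which holds RNA polymerase II paused near the start of genes, and Smyd2 is a lysine methyltransferase that modifies histones and other proteins. Hdgf binds chromatin through a PWWP domain, Atn1 (atrophin 1) is a transcriptional corepressor, Foxp4 is a forkhead DNA-binding repressor, and Crtc1 is a coactivator of the cAMP-responsive factor CREB. In mRNA, m5C is deposited by NSUN2 and NSUN6, and NSUN6 is known for sites followed by TCCA. Bisulfite reads of RNA can also keep a C where the base was protected by structure.

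The sequence around each of the 9 sites, as the lists give it for the transcribed strand, is shown because the motif groups below rest on it. The 5 bases in capitals start with the called cytosine.
Nelfb, exon 10: catcaccaagCAGAGaaacaa
Smyd2, exon 5: agctagacaaCGAGAagaaag
Hdgf, proximal 3'UTR: ggcctgcaaaCTGGGaaccct
Hdgf, distal 3'UTR: ggacatggggCTTTGatgttc
Atn1, exon 6: agctggagcgCAGTGtggtga
Foxp4, exon 6: cttgctcaacCTCCAgaggca
Foxp4, exon 7: cgagggtgccCCGGGgcagcc
Foxp4, exon 11: acagtgggggCCCTGcccgca
Crtc1, 3'UTR: gtggccataaCTCCAgaggcc

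Positions are in build mm10 (GRCm38) and features are from the GENCODE vM21 annotation of the first transcript model of each gene. All 9 sites were exonic, 6 in coding sequence and 3 in a 3'UTR, and none had another called site within 25 bases on its strand. The Nelfb site at chromosome 2, position 25203183 (minus strand), is the first base of codon 486 (CAG). The Smyd2 site at chromosome 1, position 189896676 (minus), is the third base of codon 143 (AAC). The proximal Hdgf site at chromosome 3, position 87914991 (plus), lies 84 bases after the stop codon, and the distal one at position 87915882 lies 975 bases after it. The Atn1 site at chromosome 6, position 124745645 (minus), is the third base of codon 822 (CGC), 6 bases before the 3' end of exon 6, so the last 4 bases shown are intronic. The lists also name Gm45234 there, a gene model that overlaps Atn1 on the same strand, and reads of either cannot be told apart. The Foxp4 sites on chromosome 17 (minus) are the first base of codon 203 at position 47878676, the first base of codon 243 at position 47878447 and the third base of codon 441 at position 47875569. The Crtc1 site at chromosome 8, position 70382668 (minus), lies 3457 bases after the stop codon in the last of 14 exons.

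Libraries differed in ways that touch these values. Coverage summed over listed cytosines was 1186213013 to 2857966129 per library. This is no count of reads, because a read adds to it at every listed cytosine it spans. Both libraries labelled HF stood apart from LF and MF: HF alone supplied 2590 of the 6462 called sites, and 57.9% of those had GGGG just before the cytosine, against 0.568% of the 3872 sites called in another condition and 0.492% of all listed cytosines. The second pHF library also stood apart, with 38353 cytosines over 90% unconverted where the 11 others had 1102 to 3465. At the sites tabulated in the study, coverage and unconverted reads were at many positions identical to the lists of the LF, MF and polysome libraries, and at none to the lists labelled HF. Whether the libraries labelled HF hold the RNA that their label names could not be settled, so every HF value below is one of the libraries labelled HF and not an established effect of 80 μM. Polysome and total means are given with and without the HF libraries, and without pHF where stated. The exceptions are the distal Hdgf site and the exon 11 Foxp4 site, whose levels are given by library. Of the neural stem cell markers Nes, Sox2, Pax6, Msi1, Fabp7 and Slc1a3, 5 had unconverted reads in every library and Sox2 was not named in the lists. Summed oligodendrocyte markers reached at most 5.25 unconverted reads per 1000000 (rpm) and endothelium markers at most 8.57 rpm, against 1850 to 2588 rpm in total and 1220 to 1748 rpm in polysome libraries for the stem cell markers. Summed neuron markers were at 45.7 to 111 rpm in polysome and 213 to 284 rpm in total libraries, where Map2 and Dcx fell and Tubb3 rose. Mural and fibroblast markers, 4 of 4 with reads in every library, were at 330 to 493 rpm in polysome and 112 to 398 rpm in total libraries. Of these 4, Acta2 was also higher in HF than in MF by 2.89 on the log2 scale (adjusted p = 0.000376, edgeR), where 0.256% of genes differed. It was higher in HF than in LF by 1.78 (adjusted p = 0.0272, edgeR), where 0.176% did. The study's RNA-seq of total mRNA gave the opposite for HF against MF, with a mild decrease of Acta2 in HF. It also reports RT-qPCR for its differentially expressed genes. The measures are unlike, because sums of unconverted reads also grow with the unconverted share. Astrocyte markers had 44.1 to 125 rpm in total and 28.2 to 61.7 rpm in polysome libraries, and microglia markers 25.3 to 61.8 and 33.8 to 240 rpm. The part of these markers in the results was not tested.

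**Figure D1:**
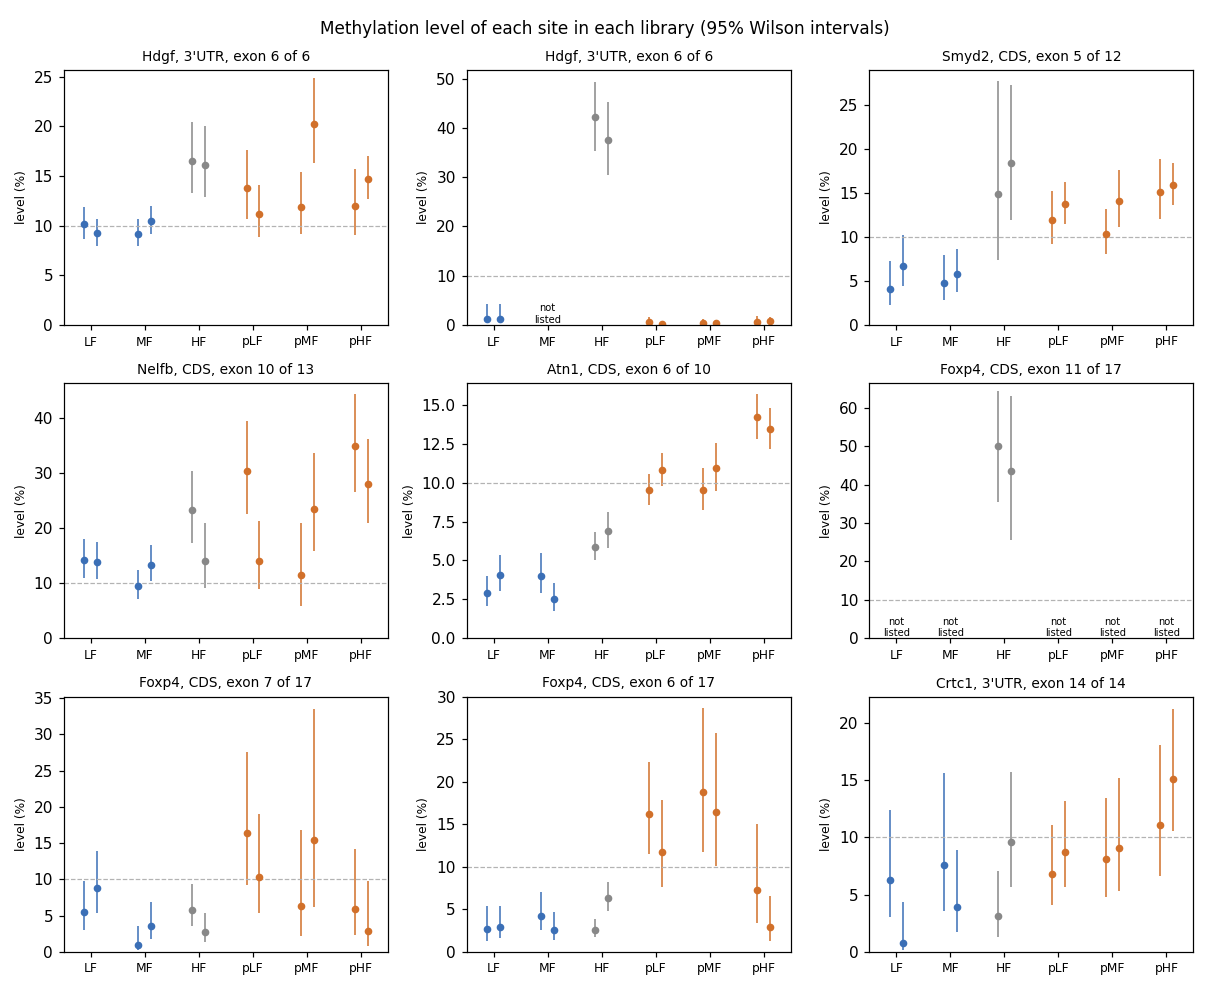
Methylation level (%, y axis) of each of the 9 sites in the 12 libraries, by condition (x axis: total LF, MF, HF and polysome pLF, pMF, pHF). Points are libraries, bars are 95% Wilson intervals, and the dashed line marks 10%. The distal Hdgf site and the exon 11 Foxp4 site were high in the libraries labelled HF alone, and the Atn1 site was higher in all 6 polysome libraries than in all 6 total libraries.

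Nelfb carried the member site called in most conditions. It was called in LF, HF, pLF, pMF and pHF. The LF replicates had levels of 14.1% and 13.8%, those of MF 9.43% and 13.3%, and those of HF 23.3% and 14.1%. Among polysome libraries pLF had 30.4% and 14%, pMF 11.4% and 23.5%, and pHF 34.9% and 27.9%, at coverages of 70 to 129 reads. The mean was 23.7% ± 9.29 (SD, n = 6) in polysome, 14.7% ± 4.58 (n = 6) in total and 12.7% ± 2.18 (n = 4) in LF and MF libraries. Without pHF the polysome mean was 19.8% ± 8.73 (n = 4). The fractions overlapped either way, because the second pLF and the first pMF library lay at the level of the total libraries. In each of the 12 libraries the site had the highest level of all Nelfb cytosines covered at least 20 times, of which there were 148 to 361. The other listed Nelfb cytosines stood at 0.133% to 0.265%.

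Smyd2 was low in LF and MF and higher in every other condition. The LF replicates had levels of 4.02% and 6.71% and the MF replicates 4.76% and 5.72%. HF reached 14.9% and 18.4%, on only 47 and 98 reads. Among polysome libraries pLF had 11.8% and 13.7%, pMF 10.4% and 14%, and pHF 15.1% and 15.8%, on 435 to 884 reads. The polysome mean was 13.5% ± 2.05 (SD, n = 6) and the LF and MF mean 5.30% ± 1.17 (n = 4), with no overlap. With HF included the total mean was 9.08% ± 6.02 (n = 6), and the sets overlapped. Without pHF the polysome mean was 12.5% ± 1.71 (n = 4). The cytosines listed within 100 bases had a median pooled level of 1.40% in the libraries labelled HF, 0.255% in LF and MF and 0.511% in polysomes. A cytosine is listed only if it kept an unconverted read, so listed levels have a floor that rises as coverage falls. The Smyd2 site was covered 47 and 98 times in HF and 249 to 367 times in LF and MF. These medians therefore cannot tell a higher level from lower coverage.

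Hdgf held a pair of sites with different patterns. At the proximal site the LF replicates had 10.1% and 9.21%, those of MF 9.20% and 10.5%, and those of HF 16.5% and 16.1%. Among polysome libraries pLF had 13.7% and 11.2%, pMF 11.9% and 20.2%, and pHF 12% and 14.7%. Every polysome library was above every LF and MF library, at 14% ± 3.34 (SD, n = 6) against 9.76% ± 0.663 (n = 4). HF averaged 16.3% and pHF 13.3% (n = 2 each). With HF included the total mean was 11.9% ± 3.43 (n = 6), the difference was 2.02 points in place of 4.20 and the fractions overlapped. Without the second pMF library it was 0.761 points. Without pHF the polysome mean was 14.3% ± 4.12 (n = 4). Around this site, the 73 other cytosines listed within 100 bases had a median pooled level of 0.121% in LF and MF, 0.896% in HF and 0.651% in polysomes. The site was covered 1419 to 1772 times in LF and MF, 417 and 404 times in HF and 336 to 1050 times in polysomes. The floor on listed levels therefore differed between these sets, and its part in the medians was not tested. The HF replicates differed here: within 25 bases the listed cytosines were at 1.87% in the first and 0.269% in the second, beside 0.10% to 0.159% in LF and MF and 0.0691% to 0.368% in polysomes. The distal site was at 42.2% and 37.5% in HF, at 1.2% and 1.19% in LF, not listed in MF, and between 0.158% and 0.701% in the 6 polysome libraries. It has GGGG just before the cytosine.

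At Atn1 the fractions did not overlap. The LF replicates had 2.88% and 4.05%, those of MF 3.99% and 2.52%, and those of HF 5.85% and 6.86%. Among polysome libraries pLF had 9.53% and 10.8%, pMF 9.52% and 10.9%, and pHF 14.2% and 13.4%. All 6 polysome libraries lay above all 6 total libraries, with means of 11.4% ± 1.98 and 4.36% ± 1.69 (SD, n = 6 each). LF and MF alone averaged 3.36% ± 0.777 (n = 4), and pLF and pMF alone 10.2% ± 0.771 (n = 4). Coverage was 928 to 3454 reads, which was 2.73 to 20.1 times the median coverage of the listed Atn1 cytosines. Cytosines listed within 100 bases stayed at or below 0.343% pooled in every library set. The site was not the highest Atn1 cytosine in the 6 total libraries, where it ranked from 3 to 22 among those with a coverage of at least 20, and it ranked 1 or 2 in the polysome libraries.

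Foxp4 held 3 sites. At the exon 6 site the LF replicates had 2.65% and 2.96%, those of MF 4.24% and 2.56%, and those of HF 2.60% and 6.30%. It stood at 16.2% and 11.8% in pLF and at 18.8% and 16.5% in pMF, but at 7.32% and 2.91% in pHF. The site was called in pLF and pMF alone, so the choice itself required levels of at least 10% in these libraries. They averaged 15.8% ± 2.92 (SD, n = 4), beside 3.10% ± 0.779 (n = 4) in LF and MF, and the choice favours this gap. With HF the total mean was 3.55% ± 1.49 (n = 6). With pHF the polysome mean was 12.2% ± 6.12 (n = 6), and the second pHF library fell within the range of the total libraries. The exon 7 site, called in pLF, had 16.4% and 10.3% there, 6.25% and 15.4% in pMF, and 5.88% and 2.82% in pHF, on 26 to 78 reads. Of the total libraries LF had 5.46% and 8.77%, MF 1.01% and 3.56%, and HF 5.79% and 2.76%, so the fractions overlapped. The means were 9.50% ± 5.5 (SD, n = 6) in polysome, 4.56% ± 2.72 (n = 6) in total and 4.70% ± 3.27 (n = 4) in LF and MF libraries. Without pHF the polysome mean of this site was 12.1% ± 4.72 (n = 4), and the fractions still overlapped. The exon 11 site was at 50% and 43.5% in HF, on 42 and 23 reads, and was listed in no other library. It is the other member site with GGGG just before the cytosine. A cytosine without an unconverted read is not listed, so its coverage elsewhere is unknown.

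Crtc1 was called in pHF. The LF replicates had 6.25% and 0.800%, those of MF 7.59% and 3.94%, and those of HF 3.11% and 9.56%. Among polysome libraries pLF had 6.76% and 8.68%, pMF 8.12% and 9.09%, and pHF 11.1% and 15.1%. The polysome mean of 9.81% ± 2.96 (SD, n = 6) stood beside 5.21% ± 3.20 (n = 6) in total and 4.65% ± 2.98 (n = 4) in LF and MF libraries, and the fractions overlapped either way. Without pHF, where the site was called, the polysome mean was 8.16% ± 1.01 (n = 4). In each library the other listed Crtc1 cytosines had a higher unconverted share than those of the other members, from 0.659% to 1.13% in total and from 1.2% to 3.23% in polysome libraries. Only cytosines with an unconverted read are listed, so this share rises as coverage falls. The median coverage of these cytosines was 19 to 177 reads by library, against 1260 to 3880 for Hdgf. The higher share therefore cannot be told apart from lower coverage.

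**Figure D2:**
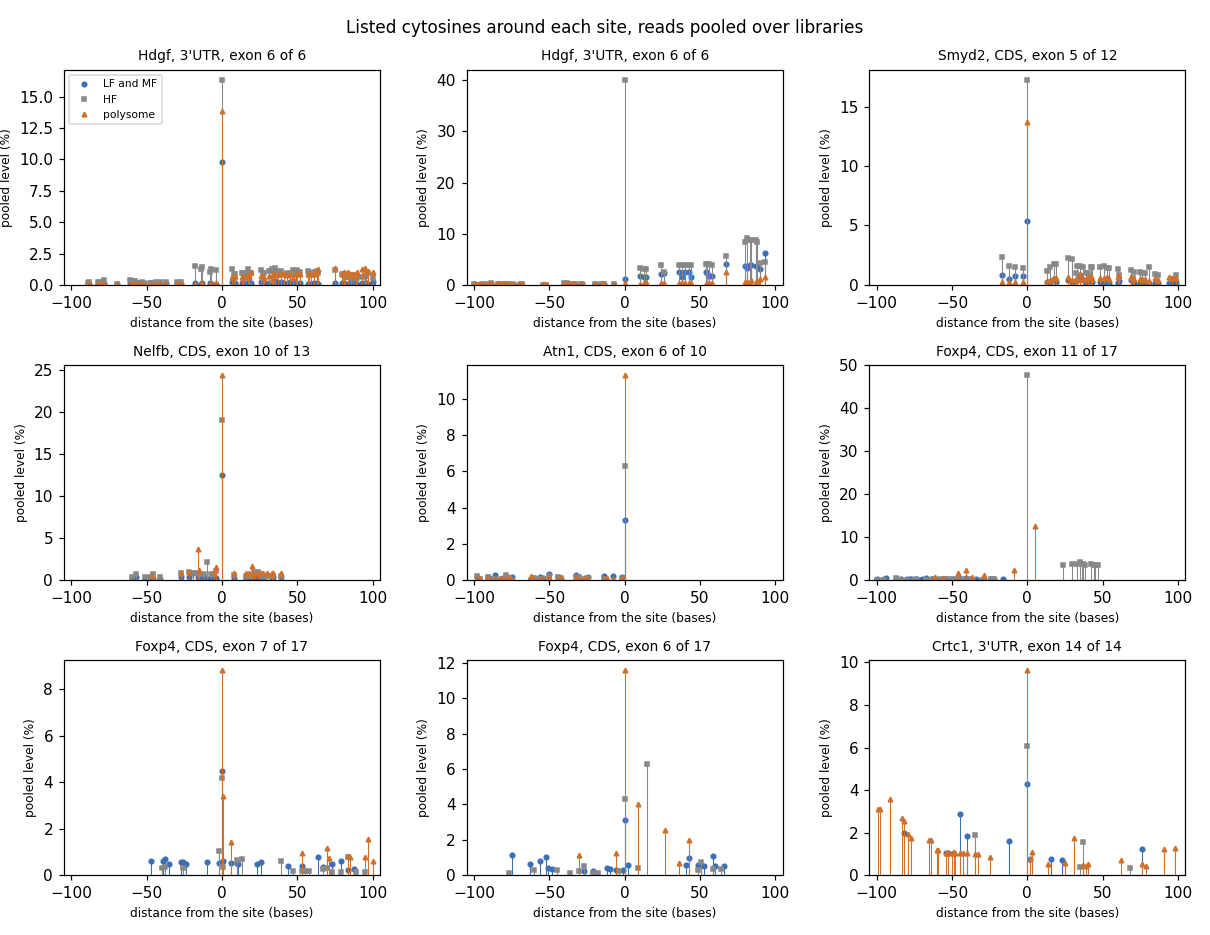
Pooled methylation level (%, y axis) of every listed cytosine within 100 bases of each site (x axis: distance in bases along the transcribed strand, introns included), for LF and MF, HF and polysome libraries. Reads are pooled over the libraries that list a cytosine, and unlisted cytosines are not drawn. In polysome libraries the Nelfb, Smyd2, proximal Hdgf and Atn1 sites stand above all their neighbours, which reach 3.68%, 0.891%, 1.33% and 0.220%. The pooled neighbours of the proximal Hdgf site and of the Smyd2 site are higher in HF than in LF and MF, with the first HF library far above the second around the Hdgf site. Both sites had lower coverage in HF, which raises the floor on listed levels, and the part of this floor was not tested.

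Across the members, the polysome level was above the LF and MF level at 7 of the 9 sites, the exceptions being the distal Hdgf site and the unlisted exon 11 Foxp4 site. The same held for 193 of 214 isolated called sites (90.2%), and the choice of sites by level can fix this direction. At 3 of these 7, namely Smyd2, proximal Hdgf and Atn1, every polysome library was above every LF and MF library. Among all isolated called sites covered at least 20 times in those 10 libraries, 96 of 214 (44.9%) did the same, and 3 (1.40%) did the opposite. With HF included, Atn1 was the only member whose 6 polysome libraries all lay above all 6 total libraries, and 50 of 206 isolated sites (24.3%) did so, while 3 (1.46%) did the opposite. The counts of members are near these shares and do not set them apart. At single concentrations the polysome minus total difference for Atn1 was 6.69 percentage points at LF, 6.97 at MF and 7.45 at HF (n = 4 libraries each). For Smyd2 it was 7.41 and 6.95 points at LF and MF and -1.16 points at HF, and for the exon 6 Foxp4 site it was 11.2, 14.2 and 0.661 points.

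**Figure D3:**
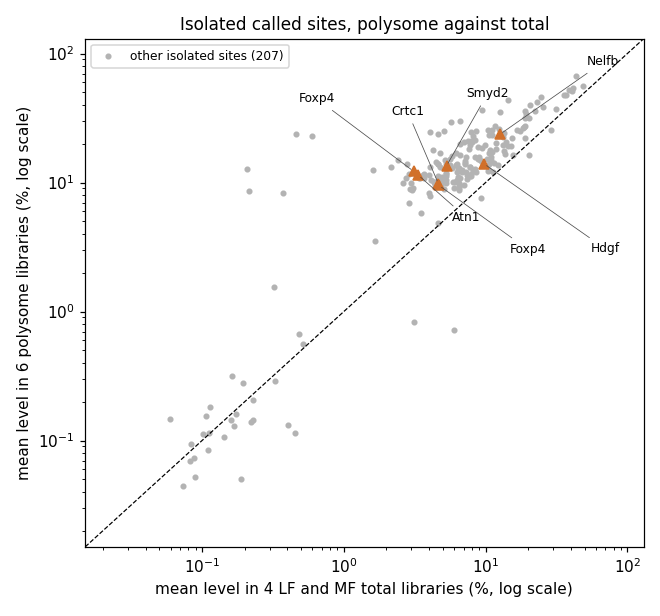
Mean level of each isolated called site in the 6 polysome libraries (y axis, %, log scale) against the 4 LF and MF libraries (x axis, %, log scale). Triangles are the 7 member sites covered at least 20 times in all 10 libraries, grey points the other 207 sites, and the dashed line marks equal levels. The 7 member sites lie above the line.

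Shared features of the sites that the rule did not use were sequence and predicted pairing. The exon 6 Foxp4 site and the Crtc1 site both read CTCCA from the cytosine on, followed by GAGGC in both. CTCCA was found at 4.66% of the 279 isolated sites called in LF, MF or a polysome condition (95% Wilson interval 2.74 to 7.81) and at 0.716% of all listed cytosines. With HF-only sites kept it was at 0.892% of 2354 isolated called sites, and at 0.542% of all 6462 called sites. The proximal Hdgf site and the exon 7 Foxp4 site read CNGGG, which was found at 21.5% of the same 279 sites (interval 17.1 to 26.7) and at 2.01% of all listed cytosines. It was at 3.91% of the 2354 isolated called sites and at 2.1% of all 6462 called sites. The motifs were searched at the cytosine on the transcribed strand, after their counts were known. The Nelfb, Smyd2 and Atn1 sites had neither. A match describes letters and not an enzyme's site.

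RNAplfold was run on the spliced transcripts to predict base pairing. At 37 °C the proximal Hdgf, Smyd2 and Crtc1 cytosines were predicted to be unpaired with probabilities of 0.90, 0.852 and 0.887, above at least 92.2% of the cytosines of their transcript. The Nelfb and Atn1 cytosines were predicted to be mostly paired, at 0.0179 and 0.0480, in the lowest 3.54% and 4.77% of the cytosines of their transcript. At 70 °C they were at 0.139 and 0.20, in the lowest 11.7%. The distal Hdgf cytosine was at 0.0785 at 37 °C, in the lowest 10.2%, but at 0.375 at 70 °C, in the lowest 34.2%. At 37 °C the 3 Foxp4 sites lay between 0.435 and 0.631. Whether pairing moved with the measured level was not tested.

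The effect of folic acid on site levels was tested in the fraction that the rule did not use, by Fisher's exact test (two-sided) on reads pooled over replicates, with adjustment over all such sites of the series. These p-values carry counting error only and not the spread between replicates. Because these sites were not called in the tested fraction, their levels there are capped by the rule. In total libraries, the Atn1 level was higher in HF than in MF by 3.13 points (adjusted p = 9.74e-08) and than in LF by 2.82 points (adjusted p = 2.41e-06). Both HF libraries lay above the 4 others. However, 61.2% of the 196 sites tested differed between HF and MF and 59.1% of 193 between HF and LF, so most of the sites tested also differed in the libraries labelled HF. With limma on log odds, which counts the spread between replicates, neither Atn1 difference passed (adjusted p = 0.0709 and 0.0949). Between LF and MF, 1 of 238 sites (0.420%) passed, and it was no member. The exon 7 Foxp4 site came nearest, with 4.70 points more in LF (did not pass, adjusted p = 0.0627, Fisher's exact test). Neither Crtc1 nor the exon 6 Foxp4 site passed in any of the 3 contrasts, so 2 of 12 member tests passed in total libraries. Single libraries moved this count. Without the first HF library 6 of the 8 tests with HF passed, among them the exon 6 Foxp4 site and Crtc1, and Crtc1 also passed against LF without the first LF library (adjusted p = 0.0337, Fisher's exact test). The exon 7 Foxp4 site passed between LF and MF without the second MF library (adjusted p = 0.0272, Fisher's exact test). In polysome libraries the distal Hdgf site differed between concentrations by at most 0.354 points and passed in none of the 3 contrasts (lowest adjusted p = 0.518, Fisher's exact test), where 18.4% of 282 sites passed between pLF and pMF, 2.60% of 154 between pHF and pMF and 11.4% of 149 between pHF and pLF.

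Gene abundance was read from the lists in 2 ways. Hdgf alone had enough cytosines listed in all 12 libraries, 123 of them, for the mean coverage of shared cytosines to be tested among 937 genes. The LF replicates had a normalized mean coverage of 5195 and 4838 reads, those of MF 4442 and 4848, and those of HF 6805 and 6401. Among polysome libraries pLF had 10953 and 8674 reads, pMF 7558 and 7926, and pHF 8428 and 7062, all above the total libraries. The log2 difference of polysome to total was 0.64 (SE 0.07, adjusted p = 6.64e-06, limma), and 77.8% of the genes differed in this contrast. It was 0.96 at LF (SE 0.13, adjusted p = 5.05e-05), where 60.4% of genes differed, and 0.74 at MF (SE 0.13, adjusted p = 0.000363), where 61.6% did. At HF it was 0.23 (SE 0.13, adjusted p = 0.131) and did not pass, where 71.6% did. It passed without the second pHF library (0.36) and with summed coverage as normalization (0.34), and was 0.10 to 0.36 with 1 library left out. The difference in the libraries labelled HF and pHF was smaller than at MF by an interaction of -0.51 (SE 0.18, adjusted p = 0.0308), as 55.9% of genes had one, and this did not pass in 7 of 18 alternatives. In total libraries Hdgf was higher in HF than in MF by 0.51 on the log2 scale (SE 0.13, adjusted p = 0.00420), as 64.0% of genes differed there, and than in LF by 0.40 (adjusted p = 0.0168), beside 63.4% of genes. The latter was lost without the first HF library (0.36) or the second LF library (0.35). Between LF and MF no gene passed (0.00% of 937, limma, with 16 at an unadjusted p under 0.05), and none passed between pLF and pMF (113 unadjusted). Between pHF and pMF (0.640% of genes) and pHF and pLF (13.9%), Hdgf differed by -0.00 and -0.34 and did not pass (adjusted p = 0.990 and 0.0965). Single libraries changed this: Hdgf was lower in pHF than in pLF without the first pHF library (-0.46, adjusted p = 0.0446, limma) and without the second pLF library (-0.50, adjusted p = 0.00821, limma). Without the latter it was also higher in pLF than in pMF (0.50, adjusted p = 0.0218, limma). In these bulk samples, fewer cells with an mRNA and less of it per cell cannot be told apart.

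For all 6 genes, unconverted reads were summed over listed cytosines outside called sites. Other cytosines that met the call thresholds in any single library were left out too. A read adds to the sum at every such cytosine where it stayed unconverted, so the sum is no count of reads. This sum grows with coverage and, unlike coverage, does not lose a cytosine for having no such read, which adds 0. Reads at cytosines covered fewer than 10 times are missing from it. It also grows with the unconverted share, so a gene whose share moves between libraries moves with it. Values are in rpm, scaled to 1000000 unconverted reads with TMM-adjusted library sizes. For Hdgf it was 295 to 448 rpm in total libraries (median 377) and 581 to 806 in polysome libraries (median 702). For Smyd2 it was 62.2 to 121 (median 81.7) against 166 to 237 (median 193). In both genes the fractions did not overlap. How many of all genes did the same was not counted, for this measure or for the coverage above. Smyd2 was higher in polysomes by 1.21 on the log2 scale (SE 0.17, adjusted p = 5.40e-05, edgeR) and Hdgf by 0.91 (SE 0.12, adjusted p = 2.69e-05), where 45.7% of 12505 genes differed. Smyd2 was higher at LF (1.30, SE 0.30, adjusted p = 0.00732) and MF (1.46, SE 0.30, adjusted p = 0.00447), and at HF the difference was 0.87 (adjusted p = 0.0539), beside 20.7%, 20.1% and 17.4% of genes. Those shares stand for 2590, 2519 and 2172 genes, which fell to as few as 1005 without the first LF, 804 without the first MF and 718 without the second HF library. Hdgf passed at each concentration, by 0.82, 1.22 and 0.69 (adjusted p = 0.0124, 0.00137 and 0.0334, edgeR). The unconverted share of the other listed Hdgf cytosines also moved, from 0.088% and 0.082% in MF to 0.143% and 0.133% in pMF. It was 0.104% and 0.105% in LF, 0.103% and 0.113% in pLF, 0.188% and 0.151% in HF, and 0.142% and 0.0962% in pHF. As it is taken over listed cytosines alone, this share also depends on coverage. The part of this share in the Hdgf differences was not tested. The calls at single concentrations were not firm. With 1 library left out, Hdgf no longer passed at LF in 3 of 20 alternatives (without either LF or the first pLF library) or at HF in 7 of 19 (without any of the LF, MF or HF libraries or the first pHF library). Smyd2 was lost at LF without the first LF or the first pLF library and at MF without the second MF library, and passed at HF in 6 of 19. Without HF and pHF, where 38.1% of genes differed, Smyd2 had 1.38, Hdgf 1.02, Nelfb 0.46, Atn1 -0.10, Foxp4 -0.01 and Crtc1 -0.41, and the last 4 did not pass.

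The other 4 genes did not pass. Nelfb had a log2 difference of 0.42 (SE 0.17, adjusted p = 0.0627), with 104 to 165 rpm in total and 123 to 218 in polysome libraries. Atn1 had 0.12 (SE 0.25, adjusted p = 0.717), and the second pHF library stood alone at 424 rpm against 94.7 to 198 in the 11 others. In that library the other Atn1 cytosines were 0.856% unconverted, against 0.140% to 0.317% elsewhere. Foxp4 had a difference of -0.35 (SE 0.27, adjusted p = 0.305) and Crtc1 of -0.88 (SE 0.39, adjusted p = 0.0728), the latter from sums of 24 to 532. These misses do not show equal abundance in the fractions. Mean coverage over the cytosines listed in the 4 libraries of 1 concentration, an alternative added after seeing the data that could be fitted for Hdgf, Smyd2, Nelfb and Atn1, gave other values for the last 2 of these. Atn1 was then higher in polysomes by 1.46 at LF (adjusted p = 0.00290, limma) and 1.02 at MF (adjusted p = 0.000147), with -0.30 at HF (adjusted p = 0.116). Nelfb was lower in polysomes, at -0.19 at MF (adjusted p = 0.0448, limma) and -0.68 at HF (adjusted p = 0.00146), with 0.05 at LF (adjusted p = 0.853). In the same fits Hdgf was higher in polysomes by 0.66 at LF, 0.39 at MF and 0.43 at HF (adjusted p = 0.0111, 0.00359 and 0.0164, limma). Smyd2 was higher by 1.08, 0.83 and 0.99 (adjusted p = 0.00151, 0.000205 and 0.000449, limma). Calls therefore depended on the measure: for Nelfb and Atn1 at several concentrations, and at HF for Hdgf, which missed on shared coverage (adjusted p = 0.131, limma), and Smyd2, which missed on unconverted reads (adjusted p = 0.0539, edgeR). In these fits 55.2% of genes differed at LF, 76.0% at MF and 75.0% at HF. By folate within a fraction, none of the 36 member contrasts passed and 4 had an unadjusted p under 0.05 (edgeR). Without the first pHF library, which leaves the second alone in its group, Atn1 passed against pLF and pMF (1.93 and 1.90). It also passed against pLF with no filter on low counts (1.26). Among all genes 0.256% differed between HF and MF, 0.176% between HF and LF and 0.00% between LF and MF (303 of 12505 unadjusted). In polysomes these shares were 0.0160% (pHF and pMF), 0.00800% (pHF and pLF) and 0.00800% (pLF and pMF). These shares were not firm. The counts ran from 7 to 168 genes between HF and MF (32) and from 6 to 135 between HF and LF (22) over the alternatives, and without the first pHF library they reached 217 for pHF and pMF and 238 for pHF and pLF.

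**Figure D4:**
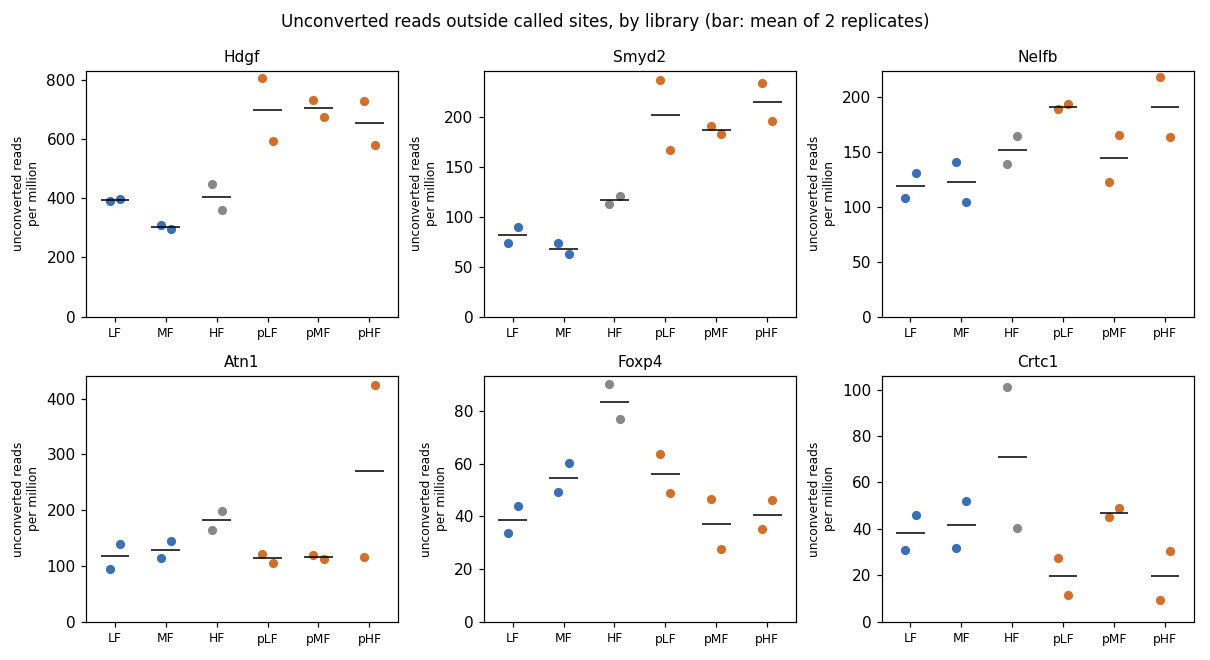
Unconverted reads outside called sites in rpm (y axis, from 0) for each member gene by condition (x axis). Points are libraries and bars the mean of 2 replicates. Hdgf and Smyd2 are higher in all 6 polysome libraries than in all 6 total libraries, which was not counted over all genes. The second pHF library stands alone for Atn1.

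Companion genes of the members were grouped by role, and 31 of 32 could be tested on unconverted reads. Of these, 8 rose and 10 fell in polysome against total libraries, 18 in all, beside 45.7% of all genes. In the elongation and pausing group, Nelfe rose by 1.43 (SE 0.20), Cdk9, the kinase that releases paused polymerase, by 1.05 and Nelfcd by 0.99 on the log2 scale, while its cyclin partners Ccnt2 and Ccnt1 fell by 2.10 and 1.18. With Supt5, 4 of 10 rose and 2 fell, and the median of the group was 0.38 against -0.06 for all genes. Without HF and pHF, 3 rose and 1 fell. Of the SMYD relatives of Smyd2, Smyd5 and Smyd3 rose by 1.81 and 1.69 and Smyd4 did not pass. Among relatives of Hdgf, Psip1 fell by 1.42 (SE 0.21), Hdgfl3 fell by 0.89 and Hdgfl2 rose by 0.55. Without HF and pHF only Psip1 of these passed.

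Among partners of CREB, Ep300, an acetyltransferase, fell by 2.40 (SE 0.32), and Creb1 by 2.20 (SE 0.43). Crebbp, Atf1, Crtc2 and Crtc3 did not pass, so 2 of 6 fell, with a median of -0.70. Of the corepressor partners of atrophins, Nr2e1, Rere and Nr2f1 fell by 1.07, 1.03 and 0.65, and 3 of 6 did not pass, with a median of -0.70. The shares called in both groups are read beside 45.7% of all genes and their medians beside -0.06. Rere was lost without HF and pHF (-0.65, adjusted p = 0.0679, edgeR). Foxp1 fell by 1.51 (SE 0.45), and Foxp2 was too low to test. Of the m5C methyltransferases, Nsun2 rose by 1.11 (SE 0.19) and Nsun6 had 0.23 (SE 0.86, adjusted p = 0.847). No companion gene passed in any of the 6 contrasts by folate.

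**Figure D5:**
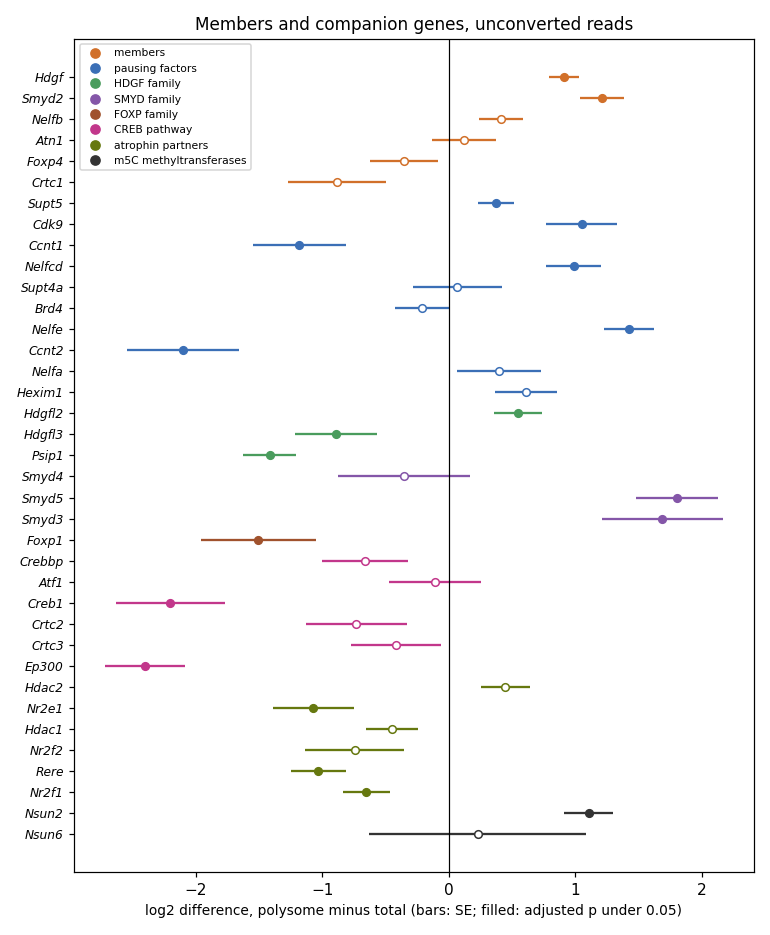
Log2 difference in unconverted reads between polysome and total libraries (x axis, bars are SE) for the 6 members and 31 companion genes (y axis), coloured by group, with filled points for an adjusted p under 0.05 (edgeR). Hdgf and Smyd2 are the filled members, to the right of 0, and Ep300, Creb1 and Ccnt2 lie farthest to the left.

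Over the 12 libraries, the gene whose normalized coverage ran most like that of Hdgf was Ccdc124 (Pearson r = 0.995, of 936 compared). On unconverted reads, of 12504 genes compared, it was Myl6 for Hdgf (r = 0.979), Tagln2 for Smyd2 (r = 0.974), Vps25 for Nelfb (r = 0.947), 6030443J06Rik for Atn1 (r = 0.934), Zkscan4 for Foxp4 (r = 0.901) and Bcorl1 for Crtc1 (r = 0.863). The 12 points of each share library depth and the split into fractions, and the values are a description.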

How the data were processed

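RNA BS-seq was analysed in 12 libraries, 2 for each of 6 conditions. Per the study's methods, the authors trimmed reads with fastp, aligned them with meRanGh to mm10, also named in the submitters' processing notes, and called cytosines with meRanTk. Per the file headers, the deposited lists give each cytosine's coverage and unconverted reads as counts and the level as a fraction, before the study's later filters. Each list holds cytosines covered 10 times or more that kept 1 or more unconverted reads, so others have no value. Those notes name R 4.1.1. Entries with a variant base were not used. Members and gene lists were chosen with earlier results of these data known.

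Levels were C reads over C plus T reads, with 95% Wilson intervals, which cover counting error only (reads carried no molecular identifiers). Named genes were the 6 members, genes of the companion and marker lists, and for each member the most alike gene. Values of companion genes are given mainly for those past the threshold with the largest change per role.

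Mean coverage of cytosines listed in all 12 libraries was scaled by median ratios and fitted with limma 3.58.1 (trend, 6 groups, genes with at least 10 such cytosines). As Hdgf alone of the members qualified, unconverted reads outside called sites were added after seeing the data and tested with edgeR 4.0.16 (quasi-likelihood, TMM, filterByExpr). The test takes these sums as counts, though a read can add to them more than once. SEs from edgeR were derived from the F statistic. Adjusted p-values are Benjamini-Hochberg over all genes or sites, with a threshold of 0.05. Pairing was predicted with RNAplfold of ViennaRNA 2.7.2. For polysome against total over the 12 libraries, tests were checked on simulated independent counts with 200 changed genes. There edgeR recovered 89.7% of those changed 2-fold among 12339 genes and limma 100% among 937. Contrasts at single concentrations and by folate, with 2 libraries a side, were not simulated, so this recovery does not cover their misses.

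Replicate numbers were not used to pair the samples outside the replicate block. Differences between replicates correlated between conditions at -0.43 to 0.25 (15 pairs, coverage) and -0.04 to 0.04 (unconverted reads). On coverage, LF with pLF had 0.246, HF with pHF 0.144 and MF with pMF 0.0553. Whether total and polysome samples of 1 concentration shared a culture was not tested. Replicates differed by far more than counting noise, so the gene tests kept them apart. Reads were pooled over replicates for Fisher's exact test and over libraries for the pooled levels. Alternatives covered calling thresholds, normalization, filters, DESeq2 1.42.0, the replicate block and leaving out libraries.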

Additional observations from a re-analysis of the deposited data

Results flagged for a closer look

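The log2 difference of Hdgf coverage between polysome and total libraries was smaller at HF than at MF, by an interaction of -0.51 (SE 0.18, adjusted p = 0.0308, limma), where 55.9% of 937 genes had such an interaction. It did not pass after leaving out either HF library, the first MF library, either pMF library or the second pHF library (adjusted p = 0.0546 to 0.109), nor with summed coverage as normalization (-0.46, adjusted p = 0.0514), nor on unconverted reads (-0.52, adjusted p = 0.538, edgeR).

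The proximal Hdgf site was lower in polysomes than in total RNA at HF (-2.98 points) and higher at LF (2.80 points) and MF (6.23 points), with n = 2 libraries a side. The pMF replicates were far apart, at 11.9% and 20.2%. The site was called in HF, pLF, pMF and pHF, so the choice used these levels. The difference between concentrations was not tested.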

How the results depend on the processing

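Of 1068 alternative values over 71 results, 860 kept their direction and their side of the threshold, or their size within the spread, 143 moved, 26 were lost, 25 were gained and 14 changed sign. The alternatives on unconverted reads, and leaving out pHF with HF, were chosen after seeing the data. The cause of a change was not tested.

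Member sites numbered 3 at a level of at least 20%, 7 without the libraries labelled HF, and 8 to 10 under the other thresholds. Leaving out the first or the second replicate gave 10 and 15. The polysome minus total difference for Smyd2 was 7.02 points with pooled reads, 8.18 without HF and 7.18 without HF and pHF, and 3.39 to 6.26 with any 1 library left out. For the distal Hdgf site it was -0.752 without HF and -0.829 without HF and pHF, and -26.5 to -12.9 leaving out 1 library. Atn1 had 8.04 points without HF, and the exon 6 Foxp4 site 12.7 without HF and pHF.

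With at least 30 cytosines per gene, 585 genes were tested in place of 937. Genes called on coverage then numbered 444 for polysome against total (729 with at least 10), 359 for HF against MF (600), 360 for HF against LF (594), 2 for pHF against pMF (6) and 46 for pHF against pLF (130). For pHF against pMF, cytosines under a level of 0.05, summed coverage as normalization and leaving out HF gave 3 each, and for pHF against pLF leaving out HF gave 69. With 1 library left out the counts were 0 to 144 for pLF against pMF, 0 to 87 for pHF against pMF and 0 to 389 for pHF against pLF.

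On unconverted reads, Nelfb passed with DESeq2 (0.42), without HF (0.56), and without the second pHF or the first pMF library (both 0.50), and ranged from 0.33 to 0.50 with 1 library left out. Atn1 passed at 0.77 with called sites included. That sum adds the unconverted reads of the Atn1 site, on which the choice rested, so this pass is no separate sign of abundance. With called sites left out, the Atn1 difference turned to -0.27 without the second pHF library (highest 0.36). Crtc1 passed with DESeq2 (-0.87), library sums (-1.01) and no filter (-0.88), and without the second HF (-1.06), the second pHF (-1.23) or the first pLF library (-1.14), and ranged from -1.23 to -0.62. Genes called by folate on unconverted reads also moved: over the alternatives 0 to 5 passed for LF against MF, 0 to 167 for pLF against pMF, 0 to 217 for pHF against pMF and 0 to 238 for pHF against pLF.

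With limma on log odds in place of Fisher's exact test, HF against MF fell from 120 to 50 sites, HF against LF from 114 to 25, LF against MF from 1 to 0, pLF against pMF from 52 to 0, pHF against pMF from 4 to 0 and pHF against pLF from 17 to 0. With 1 library left out, Fisher's exact test gave 0 to 7 sites for LF against MF, 20 to 66 for pLF against pMF, 0 to 15 for pHF against pMF and 0 to 26 for pHF against pLF. Small differences changed sign in such fits: Atn1 LF minus MF from -0.525 to 0.946 points, Crtc1 HF minus LF from -0.270 to 6.18, HF minus MF from -2.23 to 4.22 and LF minus MF from -4.54 to 0.910, the exon 6 Foxp4 site HF minus LF from -0.219 to 3.47, HF minus MF from -0.724 to 2.97 and LF minus MF from -1.42 to 0.266, and the distal Hdgf site pLF minus pMF from -0.223 to 0.179. Crtc1 HF minus MF was -0.0238 log2 odds with limma.

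With the replicate number as a block, 358 genes were higher and 375 lower on coverage, and 2520 higher and 3046 lower on unconverted reads, in polysome libraries. The blocked site fits called 49 sites for HF against MF, 14 for HF against LF, and 0 for pLF against pMF, pHF against pMF and pHF against pLF, and gave the same -0.0238 for Crtc1. The block changed no call of a member between fractions. Depth limits single values: the exon 11 Foxp4 site in HF rests on 42 and 23 reads, with 95% Wilson intervals of 35.5% to 64.5% and 25.6% to 63.2%, and Smyd2 in the first HF library on 47 reads, with 7.41% to 27.7%.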
